A study of Mus musculus with 6 samples.

Results

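Multi-exon cassette blocks are runs of 2 or more neighbouring exons that a transcript can keep or leave out together, and 2169 such blocks were followed here in brain tissue of 14-month-old male C57BL/6 mice. The deposited event tables list, for each block, an included form and a skipped form with an FPKM value each (fragments per kilobase of transcript, scaled to library size). A block was kept when the sum of both forms averaged at least 1 FPKM over the 6 libraries and each form was above 0 in at least 1 library. This left 2169 of 8357 listed multi-exon pairs, from 1302 genes, out of 77959 included and skipped pairs of every event class. Inclusion is the included FPKM divided by the sum of both forms, in percent. The blocks were thus chosen by the levels of both forms, and those levels and the position of inclusion between 0 and 100% are a description, with no test. The rule made no use of the treatment labels, but a form could pass it through the libraries of 1 treatment alone.

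The mice were injected under the skin every morning for 14 days, either with dihydrotestosterone (DHT, the androgen that binds the androgen receptor most strongly) or with an equal dose of medical corn oil. The DHT group is also called the testosterone group in the sample descriptions, and each group has 3 libraries of total RNA labelled as hippocampus. The labels do not say whether a library is 1 mouse, so the p-values below measure the spread between these libraries. Replicate values are given in the order DHT 1 to 3, then oil 1 to 3.

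The labelled tissue was checked against marker genes, which bears on any comparison of forms. Pde10a, an enzyme typical of striatal neurons, stood at 30.0 to 35.9 FPKM and Penk, a striatal opioid precursor, at 75.2 to 151 FPKM, while Neurod2, a transcription factor of cortical and hippocampal pyramidal neurons, was listed at 0 in all 6 libraries. Other hippocampal markers were mixed: Hpca, a calcium sensor of hippocampal neurons, stood at 83.1 to 111 FPKM and Cpne6 at 11.5 to 17.0 FPKM. Prox1 stood at 1.28 to 2.79 FPKM, Fibcd1 at 0.663 to 1.06 FPKM and Spink8 at 0.131 to 0.493 FPKM. Neurod6 was above 0 in DHT replicate 1 alone, at 0.257 FPKM. Of 10 striatal markers found, 8 averaged above 5 FPKM and Drd1 and Gpr6 were listed at 0 throughout, against 4 of 12 hippocampal markers above 5 FPKM. The summed level of striatal markers ran from 185 to 349 FPKM with DHT and from 266 to 297 FPKM with oil. That of hippocampal markers ran from 126 to 165 FPKM with DHT and from 126 to 134 FPKM with oil, most of it from Hpca. Choroid plexus markers summed to 0.852 to 30.4 FPKM with DHT and 2.51 to 78.9 FPKM with oil. Erythroid markers summed to 347 to 1039 FPKM with DHT and 193 to 358 FPKM with oil. The part of these cell types in the inclusion values was not tested, and in bulk tissue fewer cells of a type and less RNA per cell cannot be told apart.

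Splicing removes introns and joins exons, and a cassette exon is one that can be removed with its flanking introns. When neighbouring cassette exons are skipped as a block, the spliceosome joins the exon before the block to the exon after it, and a whole protein segment can be lost or gained. In brain such blocks are known from the amyloid precursor protein, tau and the microtubule-associated protein MAP2, where they separate isoforms of early and late life or of different cell types. The same intron pair that permits skipping can also let the block join its own end to its start, which gives a circular RNA.

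Exon sequences could be read where a skipped exon and 2 intronic bases on each side lay inside a RefSeq promoter window (250 bases before to 50 after an annotated gene start, build GRCm38.p6). That held for 15 distinct skipped exons, and in 15 of 15 the listed exon ends were flanked by AG upstream and GT downstream on the listed strand. The coordinates of the event tables therefore mark exon borders on GRCm38. The 5 exons below come from genes with a known role in neurons, glia or RNA turnover. Capitals mark the intronic AG and GT, lower case is the skipped exon, and each runs 5′ to 3′ on the strand of the gene.
Mff exon of 159 nt, chr1:82741816-82741978, plus strand: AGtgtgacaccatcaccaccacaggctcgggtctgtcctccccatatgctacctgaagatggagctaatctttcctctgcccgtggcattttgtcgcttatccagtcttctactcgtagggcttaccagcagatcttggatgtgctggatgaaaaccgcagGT
Hnrnpd exon of 57 nt, chr5:99976532-99976592, minus strand: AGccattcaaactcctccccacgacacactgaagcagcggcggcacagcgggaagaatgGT
Tnk2 exon of 222 nt, chr16:32668219-32668444, plus strand: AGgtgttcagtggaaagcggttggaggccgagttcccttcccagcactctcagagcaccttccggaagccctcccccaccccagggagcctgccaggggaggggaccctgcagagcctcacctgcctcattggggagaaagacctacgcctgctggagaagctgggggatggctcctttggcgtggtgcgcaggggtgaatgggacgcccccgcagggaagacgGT
Ppp1r9a exon of 199 nt, chr6:5154007-5154209, plus strand: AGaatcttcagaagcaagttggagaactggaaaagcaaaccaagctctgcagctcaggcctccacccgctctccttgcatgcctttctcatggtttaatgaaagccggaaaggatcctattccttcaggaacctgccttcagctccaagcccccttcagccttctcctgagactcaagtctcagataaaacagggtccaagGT
Bcas1 exon of 66 nt, chr2:170356246-170356315, minus strand: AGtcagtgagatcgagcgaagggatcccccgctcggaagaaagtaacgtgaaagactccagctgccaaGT

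Of these 5 exons, those of Mff, Hnrnpd and Tnk2 belong to blocks that were mostly kept, and those of Ppp1r9a and Bcas1 to blocks that were mostly left out. Mff is the receptor that brings the fission GTPase to mitochondria, and its 159 nt exon opens a block of 3 exons (159, 33 and 60 nt) with an inclusion of 82.8%, 99.1% and 88.7% in the DHT libraries and 91.5%, 96.8% and 90.5% in the oil libraries. Hnrnpd binds AU-rich elements of unstable mRNAs. The included form of its block of 169 and 57 nt held 8.21 and 5.65 FPKM in DHT replicates 2 and 3 and 5.23 to 6.83 FPKM with oil, against 0.0363 FPKM in DHT replicate 1. Tnk2 is a non-receptor tyrosine kinase. Its skipped form was listed at 0 in 5 of the 6 libraries and at 0.895 FPKM in DHT replicate 1. Ppp1r9a encodes neurabin, a scaffold of protein phosphatase 1 in dendritic spines, and its block of 4 exons was listed as included in oil replicate 1 alone, at 0.361 FPKM beside 28.1 FPKM of the skipped form. Bcas1 marks oligodendrocytes that are forming myelin. Its block of 3 exons was kept in DHT replicate 1 (16.4%) and oil replicate 3 (16.9%) and listed at 0% elsewhere, so neither group was uniform.

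The typical block was short and mostly kept. A block of 2 exons was the most frequent kind (1537 of 2169, 70.9%), followed by 3 exons (369) and 4 or more (263). The median block was 253 nt long, with quartiles of 174 and 385 nt. The longest in exon number was Ank3, the organiser of the axon initial segment, with 25 exons. Averaged over the libraries, 1197 blocks (55.2%) had an inclusion of at least 90%, 652 (30.1%) lay between 10% and 90%, and 320 (14.8%) were at or below 10%. Single cassette exons that passed the same rule (9933 pairs) had 39.2%, 35.6% and 25.2% in those classes, and a median inclusion of 73.5% against 93.9% for the blocks. No test of that difference was made, since the rule used these levels. Both forms averaged at least 0.5 FPKM in 430 of the 2169 blocks and in 2838 of the 9933 single exon pairs. In the rest at least 1 form averaged below that level, so high or low inclusion often rests on a form near 0. Among the blocks, 830 shared their skipped form with another block of the same gene, so blocks are not independent of each other.

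**Figure D1:**
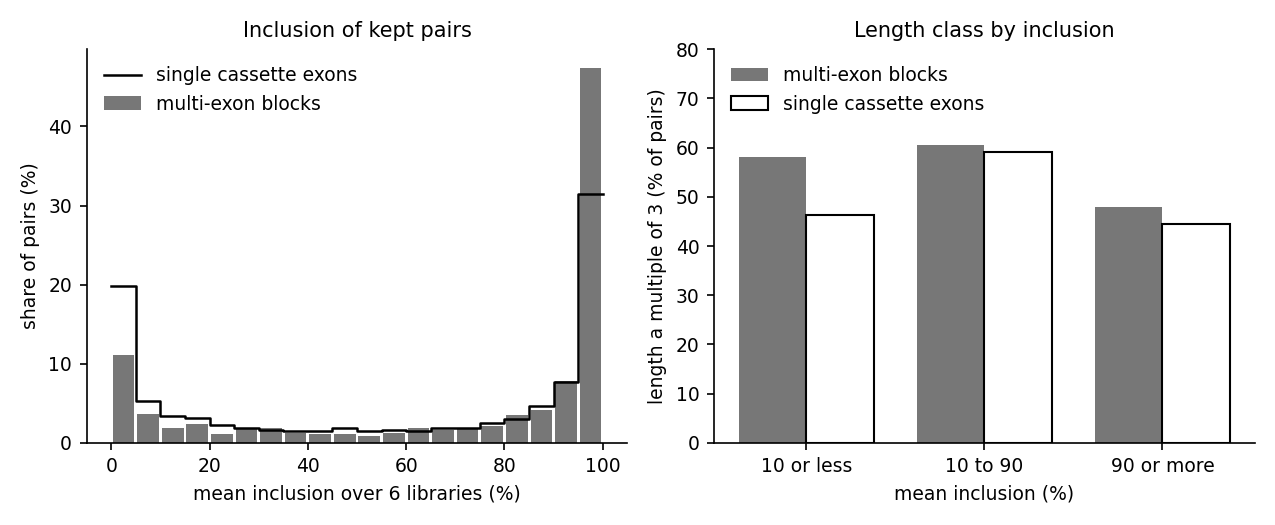
Left, share of pairs (%) by mean inclusion over the 6 libraries in bins of 5 points, with multi-exon blocks as grey bars and single cassette exons as a line; right, share of pairs whose skipped length is a multiple of 3 in 3 classes of mean inclusion. Blocks pile up above 95% inclusion (47.4% of them), and blocks between 10% and 90% are a multiple of 3 long in 60.6% of cases.

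A skipped length that is a multiple of 3 leaves the reading frame as it was. This held for 1154 blocks (53.2%). By inclusion class it held for 47.9% of the blocks kept at 90% or more, 60.6% of those in between and 58.1% of those at or below 10%. Single cassette exons gave 44.4%, 59.2% and 46.3% in those classes, and 50.1% in all. Blocks with frame-keeping lengths were most frequent among ion channel and transporter genes (18 of 21 blocks in 12 genes, 85.7%). Next came cytoskeleton and motor genes (74 of 89 blocks in 36 genes, 83.1%) and adhesion and receptor genes (31 of 39 blocks in 17 genes, 79.5%). A gene with several blocks is counted several times in these shares. The lowest share among the protein-coding lists was that of RNA-binding and splicing genes, with 22 of 59 blocks in 24 genes (37.3%). Over all members of the 9 lists it was 69.3% of 427 blocks, and 49.3% of the 1742 blocks outside them. These lists were drawn up for neuronal tissue with earlier results known, and the shares carry no test.

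Many of the exons were also listed as cassettes on their own. For 1050 of the 2169 blocks every exon was also listed as a single cassette, and for 747 (34.4%) none was. Very small exons of at most 27 nt made up 136 of 4040 distinct exons in the blocks (3.37%), against 5.47% of the single cassette exons. The hairpins of 3 miRNA genes overlapped skipped exons, namely Mir761 in the Nrd1 block (inclusion 27.4%), Mir5121 in the Flt3l block (above 99% in the mean) and Mir3103 in its own host block (98.1%).

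App, the amyloid precursor protein, had the most abundant blocks. Its pair of exons of 168 and 57 nt (chr16:85040251-85043743, minus strand) encodes the Kunitz protease inhibitor domain and the OX-2 stretch, and the skipped form is the neuronal isoform. The skipped form stood at 162, 155 and 154 FPKM with DHT and at 52.6, 120 and 136 FPKM with oil. Inclusion of both exons was 2.05%, 2.63% and 3.17% with DHT and 1.31%, 2.34% and 4.01% with oil, so the groups overlapped. The log2 ratio of included to skipped form differed by -0.05 ± 0.38 (SE; limma adjusted p = 0.99). The Kunitz exon alone, listed as a single cassette, was included at 7.28%, 8.17% and 7.99% with DHT and at 1.09%, 5.74e-05% and 4.77% with oil. These groups did not overlap, and limma gave an adjusted p of 0.911 over all pairs. App as a whole stood at 175 ± 3.33 FPKM with DHT and 109 ± 49.1 FPKM with oil (SD, n = 3 each; limma adjusted p = 0.658).

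Tau and MAP2 bind and stabilise microtubules. Tau was mostly listed without its block, while the long form of MAP2 exceeded the short form in some libraries. The Mapt block holds 2 exons of 87 nt each (chr11:104287123-104289994, plus strand), which encode the N-terminal inserts of tau. Inclusion was 13.6%, 13.2% and 9.70% with DHT and 18.7%, 9.96% and 23.6% with oil, with the highest and the second highest value both in oil libraries. The difference of the log2 ratio was -0.54 ± 0.45 (SE; limma adjusted p = 0.911). The skipped form was at 48.3, 43.2 and 44.8 FPKM with DHT and at 33.5, 36.6 and 17.4 FPKM with oil. Mapt as a whole was 51.9 ± 3.59 FPKM with DHT and 36.9 ± 8.64 FPKM with oil (limma adjusted p = 0.658). In Map2 the block of 3741 and 207 nt carries the long projection domain of dendritic MAP2. It was included at 40.6%, 34.2% and 34.1% with DHT and at 28.8%, 40.4% and 26.5% with oil, and the ranges overlapped. A second Map2 block, whose long exon begins 12 nt later, was included at 66.1%, 67.1% and 0% with DHT and at 12.1%, 22.2% and 65.2% with oil. Its included form stood at 60.7, 62.0 and 0 FPKM with DHT and at 5.71, 8.94 and 57.4 FPKM with oil, beside 30.4 to 41.3 FPKM of the skipped form that both blocks share. In 3 of the 6 libraries the long form was thus the larger.

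Blocks of genes for membranes and calcium handling showed narrow and wide spreads side by side. Rtn3 shapes tubules of the endoplasmic reticulum, and its block of 2124 and 57 nt was included at 21.1%, 16.0% and 26.3% with DHT and at 24.2%, 12.2% and 13.7% with oil. Atp2b2, a calcium pump of the plasma membrane, had a block of 3 small exons (42, 60 and 33 nt) at 1.49%, 3.98% and 3.74% with DHT and 2.166%, 1.02% and 0.668% with oil. Another Atp2b2 block, of 127 and 172 nt, was included at 31.2%, 32.0% and 31.0% with DHT and at 32.6%, 1.01% and 29.0% with oil. The Itpr1 block (33, 36 and 48 nt), in the inositol trisphosphate receptor of the endoplasmic reticulum, was kept at 88.3%, 89.2% and 100% with DHT and at 89.8%, 90.7% and 86.7% with oil. In these 3 genes the groups overlapped, and limma adjusted p was 0.911 for each.

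Synj1, a phosphatase that uncoats synaptic vesicles, had a block of 39 and 48 nt that was included at 52.2%, 32.8% and 39.2% with DHT and 27.8%, 28.6% and 64.4% with oil. The mean was 41.4 ± 9.90% and 40.3 ± 20.9% (SD, n = 3 each). Mff had a second block of 33 and 60 nt at 69.0%, 72.3% and 82.2% with DHT and 52.7%, 84.4% and 63.7% with oil. Atf2, a transcription factor of the CREB family, kept its block of 115 and 179 nt at 76.9%, 70.8% and 52.7% with DHT and 66.8%, 61.1% and 58.7% with oil. Gtf2i, a general transcription factor deleted in Williams syndrome, was split nearly evenly, at 52.0%, 44.3% and 42.3% with DHT and 52.7%, 41.3% and 51.9% with oil. Mbnl2, itself a splicing regulator, included its block of 36 and 95 nt at 13.5%, 18.5% and 20.4% with DHT and 22.3%, 26.6% and 14.1% with oil. Overlap between the groups was seen in all of these 5 genes.

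**Figure D2:**
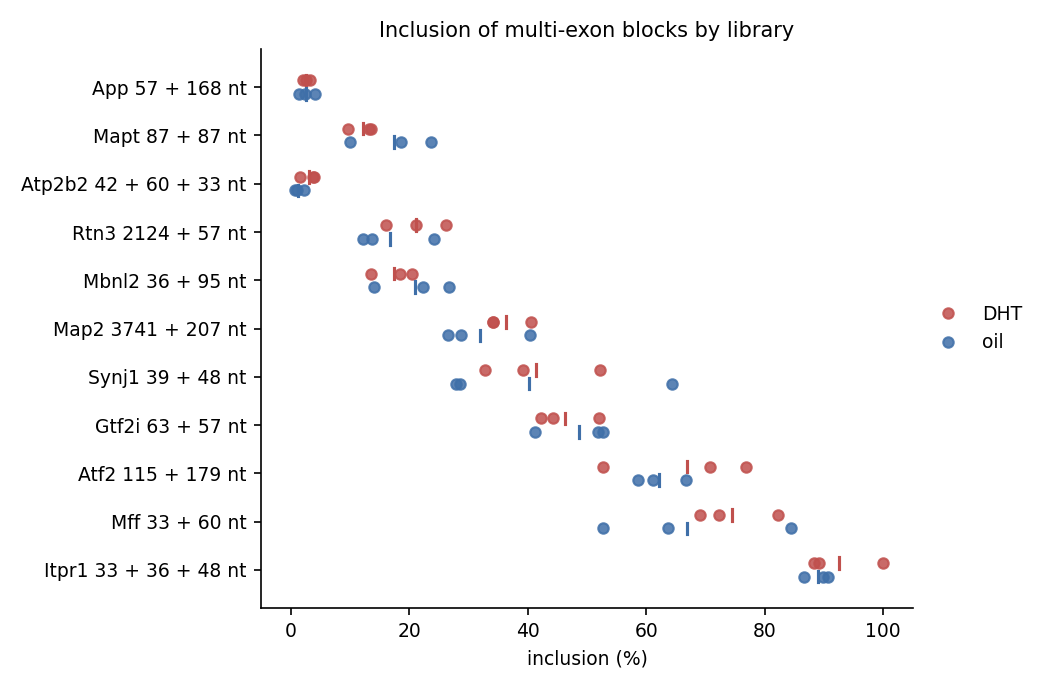
Inclusion (%) of 11 blocks in each library, DHT in red and oil in blue, with a short line at each group mean. The blocks run from App at 1.31% to 4.01% up to Itpr1 at 86.7% to 100%, and red and blue points mix in every row.

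Replicates of the same group differed widely in some blocks. The median within-group SD of inclusion was 4.79 percentage points, and 703 blocks (32.4%) had an SD above 10 points. A large SD need not mean a switch from one form to the other. Wdr13, among the blocks of largest SD, stood at 20.2, 0 and 18.8 FPKM of the included form with DHT and at 12.9, 11.1 and 0 FPKM with oil, while its skipped form stayed between 0.00565 and 0.0152 FPKM. In the 2 libraries without the included form the skipped form was thus no higher. Map1b was listed as fully skipped in 5 libraries and at 31.6% in DHT replicate 1. Eno2, the neuronal enolase, had 50.2 FPKM of the skipped form in DHT replicate 3 and at most 0.0939 FPKM in the others. Apbb1, an adaptor that binds the tail of the amyloid precursor protein, had its block of 115, 128 and 150 nt at 33.9%, 31.7% and 100% with DHT and at 100%, 100% and 42.2% with oil. Next to the level threshold, Nhlrc4, Zfp809 and Kank3 were just inside (1.0003 to 1.0020 FPKM) and Erbin, Brf1 and Zfp384 just outside (0.9984 to 0.9997 FPKM). Zfp809 was at 75.6%, 66.7% and 90.1% with DHT and at 100% in each oil library. Erbin was at 24.8%, 29.9% and 52.8% with DHT and at 0% in each oil library.

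Whether DHT changed block usage was tested with limma on log2((included + 0.5)/(skipped + 0.5)), fitted over 24053 pairs of every event class and adjusted over all of them by Benjamini-Hochberg. No block passed an adjusted p of 0.05 (0 of 2167 tested; 0% of all pairs), and the smallest adjusted p was 0.267. At an unadjusted p under 0.05 there were 124 blocks (5.72%), against 4.9% of all pairs. Of these, 63 had a higher ratio with DHT (2.91% of the blocks) and 61 a lower one (2.81%), where 2.22% of all pairs were higher and 2.68% lower. Inclusion did not overlap between the groups in 128 of 2091 blocks with a level in all 6 libraries (6.12%), against 6.2% of all such pairs. In 55 of the 128 inclusion was higher with DHT and in 73 lower, and among all such pairs 2.9% were higher and 3.3% lower. Without regard to direction, the shares of the blocks are thus near those of all pairs. The median log2 difference was 0.01 for the blocks and -0.02 for all pairs. Of the 128 blocks, 57 differed by at least 10 percentage points in the mean (28 higher, 29 lower) and 24 by under 1 point. Median inclusion per library was 98.0%, 97.9% and 98.0% with DHT and 98.4%, 98.8% and 98.5% with oil.

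**Figure D3:**
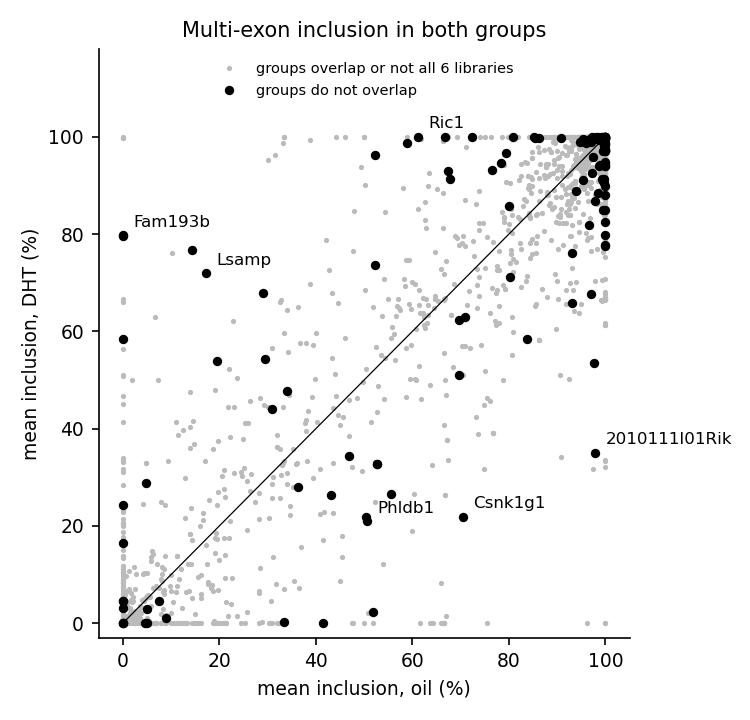
Mean inclusion (%) of each block in the DHT libraries against the oil libraries, with the line of equal inclusion. Black points are the 128 blocks whose 3 DHT and 3 oil values do not overlap; Lsamp lies at 72.0% against 17.3% and 2010111I01Rik at 35.0% against 97.9%.

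Lsamp, an adhesion protein of limbic neurons, had the smallest p of the blocks, and it did not pass the adjusted threshold. Its block consists of 2 small exons of 36 and 33 nt (chr16:42151244-42168183, plus strand). The included form stood at 12.4, 14.0 and 15.2 FPKM with DHT and at 2.14, 2.87 and 2.38 FPKM with oil. The skipped form stood at 4.94, 5.89 and 5.35 FPKM with DHT and at 7.30, 15.2 and 15.5 FPKM with oil. Inclusion was therefore 71.5%, 70.4% and 74.0% with DHT and 22.7%, 15.9% and 13.3% with oil, so that every DHT library was above every oil library. The log2 ratio was higher by 3.37 ± 0.34 (SE; limma unadjusted p = 5.6e-05, adjusted p = 0.267). With inclusion in percent as the measure, the difference was 54.7 ± 2.79 points (SE) and limma's adjusted p was 0.0151. The gene value of Lsamp, the larger of its summed first-exon and last-exon FPKM, was 12.6 ± 2.83 with DHT and 21.0 ± 4.78 with oil (log2 difference -0.71, limma adjusted p = 0.656). With DHT it lay below the included form alone (mean 13.9 FPKM), so it does not give the sum of the forms of this block. A second listed Lsamp block adds an exon of 38 nt and was included at 0 to 9.0% in the 6 libraries.

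Among the other blocks with a higher included share with DHT, Ric1 and Fnbp1 had little or no skipped form listed with DHT. Ric1, a partner in the exchange factor for the Golgi GTPase Rab6, had no skipped form listed with DHT and 1.69, 1.77 and 1.86 FPKM of it with oil. The Ric1 block thus met the rule on the skipped form through its oil libraries alone. Its included form was 4.095, 4.05 and 4.25 FPKM with DHT and 2.23, 5.03 and 2.06 FPKM with oil. The difference of the log2 ratio was 2.64 ± 0.37 (SE; limma adjusted p = 0.46). Fnbp1 is an F-BAR protein that bends membranes for endocytosis. Its block of 4 exons (15, 195, 147 and 129 nt) had an included form of 6.12, 8.74 and 8.62 FPKM with DHT and 3.605, 2.29 and 1.73 FPKM with oil, with the skipped form at most 0.0174 FPKM with DHT and 1.71, 0.236 and 0.0502 FPKM with oil. The gene as a whole was 19.5 ± 2.25 FPKM with DHT and 9.63 ± 1.49 FPKM with oil (log2 difference 0.99; limma adjusted p = 0.559). Where 1 form is near 0 the log2 ratio follows the level of the other form: another Fnbp1 block of 84 and 153 nt has the same 6.12 to 8.74 FPKM as its skipped form and is counted as lower with DHT.

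Add2, the beta subunit of adducin that caps actin filaments, is such a case: inclusion was above 99% in every library, and the included form was 24.2, 18.0 and 18.4 FPKM with DHT and 6.81, 7.27 and 9.55 FPKM with oil. Fam193b had an included form of 1.32, 1.94 and 1.24 FPKM with DHT that was listed at 0 in each oil library. This block met the rule on the included form through its DHT libraries alone, while its skipped form was listed above 0 in both groups. Ccdc85a, a coiled-coil protein, kept its 3 exons at 100%, 90.05% and 100% with DHT and at 84.8%, 73.0% and 80.2% with oil. Limma's adjusted p was 0.77 for Add2 and for Ccdc85a. The noncoding A230006K03Rik and Rbm14, a coactivator found in paraspeckles, completed the 8 genes with the smallest p among higher, non-overlapping blocks. A230006K03Rik had no included form listed with oil, so its block met the rule on that form through its DHT libraries alone. In Rbm14 the skipped form was at most 9.3e-05 FPKM in every library, and mean inclusion with DHT was 99.998%. With oil it was 99.985%, 99.994% and 0%, the last in a library without the included form.

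On the lower side, the smallest p belonged to a block of 7 exons in Lrrfip1, which had no level in DHT replicate 2. Its included form was listed at 0 with DHT and at 1.03, 1.64 and 1.29 FPKM with oil, and its skipped form was 3.20 and 1.38 FPKM in DHT replicates 1 and 3 and 0.00825, 0.182 and 0.00575 FPKM with oil. The block thus met the rule on the included form through its oil libraries alone. Among lower blocks with a level in all 6 libraries and no overlap between the groups, 2010111I01Rik (aminopeptidase O) had the smallest p. Its block of 69 and 75 nt was included at 13.5%, 50.01% and 41.6% with DHT and at 97.7%, 98.6% and 97.5% with oil. The skipped form was 1.79, 1.65 and 1.12 FPKM with DHT and 0.0508, 0.0542 and 0.107 FPKM with oil. The difference of the log2 ratio was -3.35 ± 0.49 (SE; limma adjusted p = 0.46). Phldb1, which anchors microtubule ends at the cell cortex, stood at 33.3%, 0.000888% and 29.8% with DHT and at 54.5%, 48.9% and 48.2% with oil. Csnk1g1, a membrane-bound casein kinase, stood at 14.0%, 32.4% and 19.2% with DHT and at 69.2%, 53.2% and 88.8% with oil. Ttll3, a ligase that adds glycine to tubulin, stood at 91.5%, 88.2% and 94.5% with DHT and at 98.4%, 100% and 99.5% with oil. Limma's adjusted p was 0.77 for Phldb1, 0.911 for Csnk1g1 and 0.854 for Ttll3. The other genes with the smallest p on this side were Tlk1, a kinase of chromatin assembly (adjusted p = 0.728), Cdc42bpa, a kinase downstream of the GTPase Cdc42 (0.823), and Ablim3, an actin-binding LIM protein (0.911). Ablim3 had no skipped form listed with oil, so its block met the rule on that form through its DHT libraries alone.

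**Figure D4:**
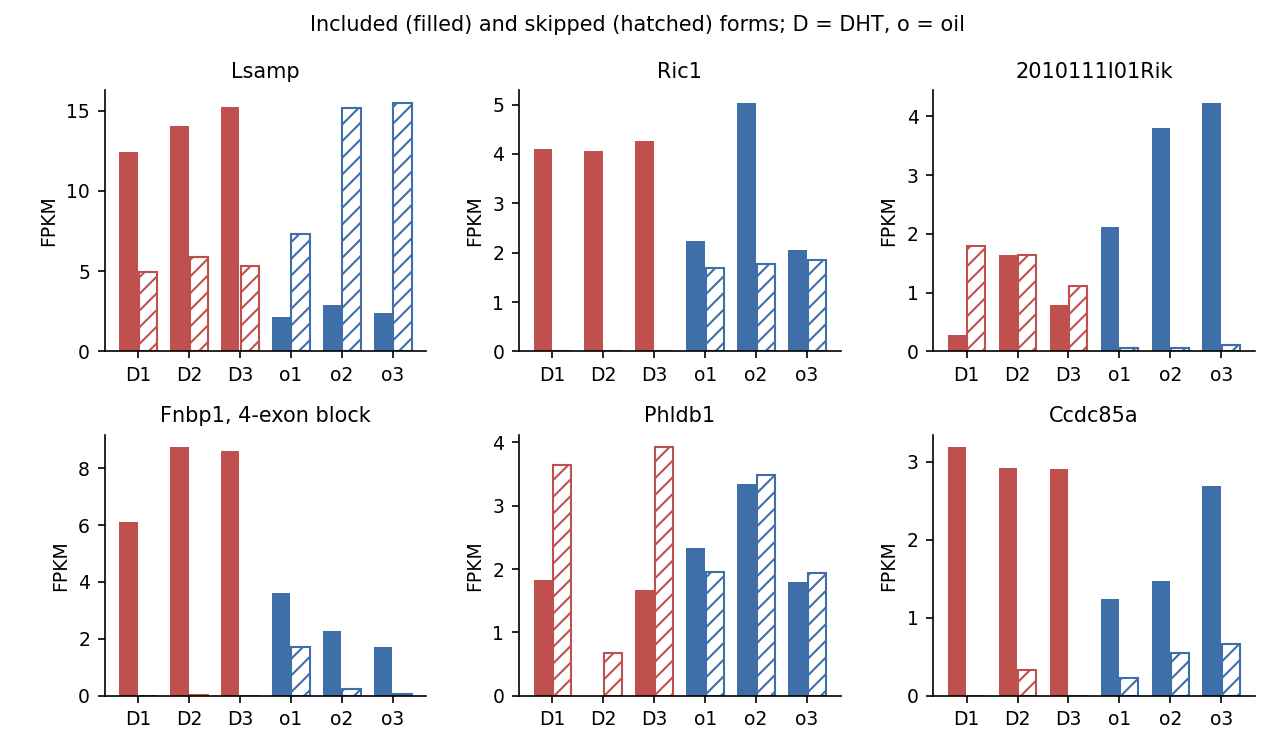
FPKM of the included form (filled) and of the skipped form (hatched) in each library for 6 blocks, DHT in red and oil in blue. In Lsamp the included form is the larger with DHT and the skipped form the larger with oil, Ric1 has a skipped form in the 3 oil libraries alone, and in Fnbp1 mainly the included form differs.

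The blocks of Kif21a and Mbtd1 were taken after their values were seen, so their values are a description. Kif21a is a kinesin that regulates microtubule growth, and its block of 12, 39 and 129 nt was included at 33.5%, 18.3% and 21.1% with DHT and at 0% in each oil library. It met the rule on the included form through its DHT libraries alone. A closely similar Kif21a block, whose first exon is 3 nt longer, was included in DHT replicate 2 alone, at 18.0%. Mbtd1, a reader of methylated histones, was at 100%, 100% and 30.5% with DHT and 17.0%, 18.7% and 7.31% with oil.

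By role, few blocks of any list had an unadjusted p under 0.05. Over all 427 blocks of the lists, 14 had a higher ratio with DHT (3.28%) and 10 a lower one (2.34%), beside 2.22% and 2.68% of all pairs. The counts of single lists are too small to be read against those shares. Of 103 blocks in synapse and vesicle genes, 4 had a higher and 2 a lower ratio at an unadjusted p under 0.05, with a median log2 difference of -0.09. Cytoskeleton and motor genes had 4 higher and 4 lower of 89 (median 0.14), adhesion and receptor genes 2 and 1 of 39 (median 0.25), and chromatin and transcription genes 2 and 1 of 48 (median 0.16). Ion channels and transporters had 1 higher and 0 lower of 21 (median 0.04), and kinase, phosphatase and GTPase genes 1 and 1 of 33 (median 0.01). RNA-binding genes had 0 higher and 1 lower of 59 (median 0.09), and the 28 ubiquitin and metabolic blocks and the 7 noncoding blocks had none. No block in any list passed the adjusted threshold.

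The level of the genes that carry the blocks was compared next. Of 1298 host genes measured, 0 passed an adjusted p of 0.05 in limma (0.0176% of all genes), and 95 (7.32%) had an unadjusted p under 0.05, against 7.34% of all genes. Of the 95, 71 were higher and 24 lower with DHT as deposited. With each library centred on its median, 39 were higher and 50 lower. The median log2 difference of all 11368 genes was 0.07 as deposited. Of 88 measured hosts of the 124 blocks with an unadjusted p under 0.05, 17 had a gene value at an unadjusted p under 0.05. That is a larger share than the 7.32% of all hosts. The part of the host level in the ratios of these blocks was not tested.

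Regulators of splicing were measured in the same tables. Of 83 RNA-binding and splicing genes tested, 0 passed the adjusted threshold in limma, and 3 were higher and 3 lower with DHT at an unadjusted p under 0.05. These 6 are 7.23% of the list, near the 7.34% of all genes, and they are named after their values were seen. Tardbp, which represses cryptic exons, stood at 7.34, 9.58 and 6.85 FPKM with DHT and 12.3, 12.8 and 14.0 FPKM with oil (log2 difference -0.70, adjusted p = 0.652). Srrm3, an activator of very small neuronal exons, stood at 7.35, 6.20 and 7.22 FPKM with DHT and 5.80, 5.05 and 5.16 FPKM with oil (log2 difference 0.34, adjusted p = 0.656). The others were Ythdf2 and Eif4g1 on the higher side and Ptbp3 and Clk4 on the lower. Rbfox1, which many brain cassette exons depend on, was at 36.1 ± 10.7 FPKM with DHT and 37.8 ± 2.66 FPKM with oil (SD, n = 3 each). The summed level of the list ran from 1190 to 1330 FPKM with DHT and from 1214 to 1318 FPKM with oil.

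Some blocks are also circles. A listed circular RNA with the same start, end and strand was found for 150 of 1928 distinct blocks (7.78%), against 62 of 9629 distinct single cassette exons (0.644%), a difference that was not tested. Counted as pairs, the 178 with a circle had a median length of 409.5 nt, against 243 nt without. Their median linear inclusion was 96.9% against 93.3%. Single exon pairs with a circle had a median length of 599.5 nt, against 101 nt without, so length differs along with the share. The back-splice reads of the 150 matched circles made up 3.10% to 3.77% of all junction reads in a library, at library totals of 43512 to 55325 junction reads. Of the 150 circles, 55 were listed in all 6 libraries. A circle enters the files at 2 or more junction reads, so an unlisted circle may lie below that.

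The active-zone scaffolds Rims1 and Rims2, which tether synaptic vesicles to calcium channels, differed in the linear inclusion of the pairs described here, whose blocks are also circles. In Rims2 the block of 3 exons (chr15:39566943-39616510, plus strand) gave 205, 190 and 214 back-splice reads with DHT and 191, 155 and 140 with oil, the largest sum of all matched circles (1095). Its linear inclusion was 7.87%, 9.24% and 19.5% with DHT and 7.18%, 19.5% and 16.0% with oil. The Rims1 block (chr1:22346293-22379540, minus strand) gave 122, 77 and 97 reads with DHT and 69, 81 and 53 with oil. This block holds 2 kept pairs. The linear inclusion of the pair described was 92.4%, 75.5% and 74.4% with DHT and 71.5%, 80.9% and 87.2% with oil. A longer Rims1 circle with the same lower coordinate, typed as intron in the circle table, gave 42, 34 and 34 reads with DHT and 44, 27 and 50 with oil. The difference between these genes is a description of the pairs given.

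The exons of the Rbm14 block total 617 nt, and what its circle holds between its ends was not measured. This circle, which the circle table assigns to the overlapping Gm21992, gave 204, 170 and 172 reads with DHT and 151, 132 and 117 with oil. Normalised to library size, this was 3670 ± 207.5 CPM with DHT and 2907 ± 172 CPM with oil (counts scaled to the junction reads of the library; SD, n = 3 each), with no overlap between groups. edgeR's quasi-likelihood test gave a log2 difference of 0.34 ± 0.17 (SE) and an adjusted p of 0.996. A circle that the circle table assigns to Homer1, a postsynaptic scaffold, spans a block of 4 exons (chr13:93341756-93356079, plus strand) that the event table places in Gm47155. It gave 108, 91 and 99 reads with DHT and 87, 65 and 65 with oil (adjusted p = 0.996). A Tlk1 circle (chr2:70770004-70786995, minus strand) gave 69, 103 and 94 reads with DHT and 75, 101 and 84 with oil. The Tlk1 block named above as lower with DHT is a different one (chr2:70768862-70786995). Its circle gave 26, 31 and 17 reads with DHT and 28, 25 and 22 with oil.

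Over the 68 matched circles with at least 20 reads, edgeR called 0 (0% of all 2524 circles tested), 2 had an unadjusted p under 0.05 (2.94%, against 3.13% of all), and 37 were higher and 31 lower with DHT. The 2 were Zfp644, with 17, 16 and 10 reads with DHT and 40, 20 and 25 with oil, and Cntn5, an adhesion protein, with 16, 8 and 5 reads with DHT and 2, 3 and 0 with oil. Their adjusted p was 0.996. DESeq2 gave 2 circles at an unadjusted p under 0.05 and 0 after adjustment.

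**Figure D5:**
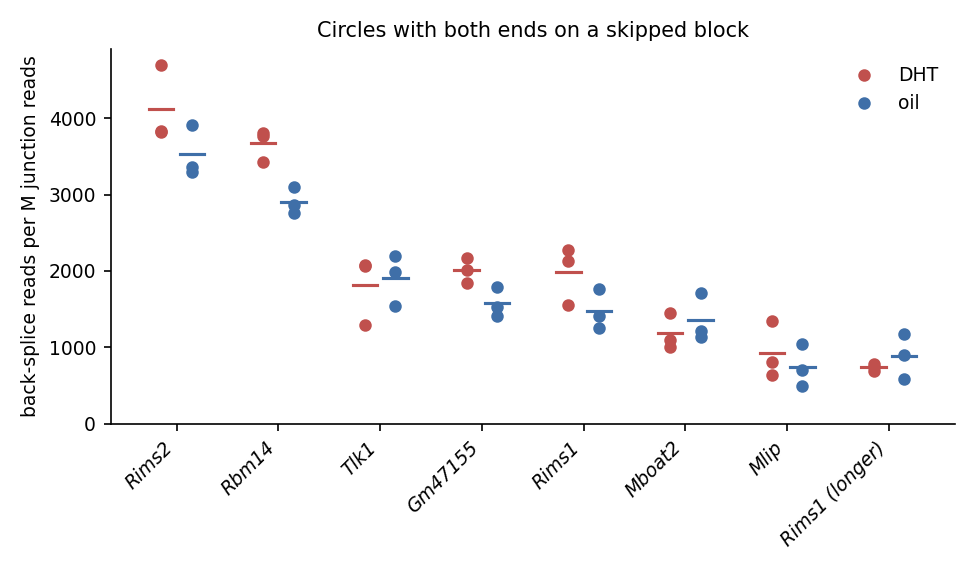
Back-splice reads in CPM (scaled to the junction reads of a library with edgeR's factors) for the 8 most read circles that start and end with a skipped block, DHT in red and oil in blue, with group means as lines. Rims2 and Rbm14 lead with means of 4117 and 3670 with DHT and 3527 and 2907 with oil.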

How the data were processed

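Total RNA of 6 libraries (3 DHT, 3 corn oil) was sequenced for circular RNA. The submitters' processing notes name bcl2fastq 2.17.1.14, cutadapt, HISAT2 2.0.1, BWA and build mm9. The listed coordinates fit GRCm38 instead: 93.9% of 2097 blocks with a gene in the GRCm38 table lay inside its bounds. The deposited event tables (315379 rows each) give FPKM per event form as the authors computed them; how a form's FPKM is made, its depth and strandedness are not stated by any label or header, so no counting interval can be given. The deposited circle tables hold junction read counts at 2 or more reads.

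Included and skipped rows were paired by order within a file, with gene identity checked. A library with both forms at 0 was left out for that pair. 2 blocks could not be fitted, and 78 lacked a level in at least 1 library. limma 3.58.1 (R 4.3.3, trend on level) was fitted to log2 ratios with a pseudocount of 0.5 FPKM; the 3 DHT were compared with the 3 oil libraries, with no covariate. A gene value is the larger of the summed first-exon and last-exon FPKM of its loci, tested with limma on log2(FPKM + 0.5) for genes averaging at least 0.5 FPKM. Such differences understate changes of low genes. Circle counts were tested with edgeR 4.0.16 (TMM, all junction reads as library size, at least 20 reads) and with DESeq2 1.42.0 as an alternative. Scripts were tested on simulated data. Gene symbols were matched for 2163 of 2169 blocks.

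The members, gene lists and tests were chosen with earlier results of these data known. Named blocks are the 8 in each direction with the smallest p among non-overlapping ones, the 10 of highest level and up to 3 per list (each 1 per gene), the 8 with the most circle reads, the 5 of largest spread, those next to the level threshold, the block with most exons and the 3 nearest 50%; App, Mapt, Map2, Mff, Lrrfip1, Apbb1, Bcas1, Tnk2, Hnrnpd, Ppp1r9a, Kif21a and Mbtd1 blocks beyond these were taken after their values were seen. Alternatives changed the pseudocount, the scale, the level minimum, the set of pairs and the libraries used.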

Additional observations from a re-analysis of the deposited data

How the results depend on the processing

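The count of blocks past an adjusted p of 0.05 in limma stayed at 0 in 13 of 14 alternatives and was 6 with inclusion in percent as the measure. Of these 6, Lsamp had values in all libraries (54.7 points, adjusted p = 0.0151), and blocks of Lrrfip1, Fnbp1, Snurf, Ank3 and Ccser2 lacked a level in at least 1 library; the cause of the difference in calls was not tested. The count at an unadjusted p under 0.05 was 124, and became 64 in percent, 54 with a minimum of 3 FPKM (1197 blocks tested), 218 with no minimum (3831 tested) and 17 with both forms at 0.5 FPKM or more (430 tested, chosen after seeing the data); the last 3 test other numbers of blocks. Without each library in turn it ran from 104 to 137. For Lsamp the log2 difference then ran from 3.18 to 3.63 and the adjusted p from 0.111 to 0.488. Each of the 16 named non-overlapping blocks kept its direction wherever it was fitted. Their choice by groups that do not overlap made this largely certain beforehand, so it is no check of the direction. Host genes at an unadjusted p under 0.05 numbered 84 to 110 without each library. Matched circles at an unadjusted p under 0.05 numbered 2, and 1 to 5 without each library, with 1 without DHT replicate 1, 1 without oil replicate 1 and 5 without oil replicate 3. No paired analysis was possible because the labels give no replicate numbers shared between the groups; the numbers 1 to 3 used here only name the libraries. With 3 libraries a group and forms often near 0 FPKM, the fit can pass only large differences, and a missing call does not show that a block is unchanged.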
